A study of Mus musculus with 92 samples.

Results

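The villus libraries of the Vil1-CreER mice are 10 of the 92 samples of a mouse study on the translation initiation factor eIF4G2, and were taken by their titles, which name homozygous villi at 3 months (6 libraries) and heterozygous villi at 3 months (4 libraries). Homozygous mice were Eif4g2(flox/flox),Vil1(CreER) and heterozygous mice, the controls, were Eif4g2(flox/+),Vil1(CreER). All 10 mice carried the CreER driver and at least 1 floxed allele, and all received tamoxifen at 100 mg/kg daily for 4 days. The controls therefore had the driver, the tamoxifen and 1 recombinable allele of Eif4g2 as well, and no villus library came from a mouse without the driver. The Vil1 (villin) promoter places CreER in the epithelium of the intestine, so the other cells in a villus sample keep their Eif4g2 alleles. The age and the sex of the mice and the stretch of intestine sampled were not labelled. Each library came from a mouse with its own number, and 7 of the mice (4 heterozygous, 3 homozygous) also gave a crypt library.

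eIF4G2, also called DAP5 or p97, is a relative of the scaffold protein eIF4G1 that lacks the part binding the cap-binding protein eIF4E, and it serves the translation of a subset of mRNAs. The villus is covered by absorptive enterocytes, among which lie mucus-secreting goblet cells, hormone-secreting enteroendocrine cells, chemosensory tuft cells and intraepithelial lymphocytes. All epithelial types descend from stem cells in the crypts, so that a villus sampled months after recombination consists of cells born after it.

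The libraries held 24064538 to 36985500 counts over 20453 to 21795 genes. Levels are given in CPM, counts per 1000000 counts of a library after TMM scaling of the library sizes. Differences are log2 fold changes, homozygous minus heterozygous, with an approximate standard error (SE) and the adjusted p of edgeR's quasi-likelihood F-test. The SE was not an output of the fit. It was derived from the test, as the size of the log2 fold change over the square root of F. A gene was called when that adjusted p was under 0.05. The first principal component held 61.1% of the variance and separated the genotypes. The 14 enterocyte markers summed to 48210 to 63260 CPM in heterozygous and 45610 to 81060 CPM in homozygous libraries, so both groups were enterocyte-rich as labelled. Collagens and most other stromal markers were near 0, with the 22 summing to 20.01 to 29.1 CPM against 23.6 to 40.8 CPM. Mitochondrial transcripts took 17.1% ± 7.15 (SD, n = 4) of heterozygous and 12.46% ± 5.99 (SD, n = 6) of homozygous counts, a difference of -4.65 percentage points (exact two-sided permutation test over 210 arrangements, p = 0.305). Y-linked transcripts were present in 1 library of each genotype.

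The control libraries did not all match the homozygous ones in regional markers. Fabp6, the ileal bile acid binding protein, had 0 reads in heterozygous replicates 3 and 4 and stood at 322 and 794 CPM of the library total (unscaled) in heterozygous replicates 1 and 2, against 268 to 598 in the homozygous libraries. Crypt libraries of the same 2 controls were also nearly without it, at 0.345 and 0.49 CPM. These 2 controls stand apart from the other 8 libraries in a gene that marks the distal small intestine, and whether the stretch sampled differed was not tested. Counts are therefore also given from a fit without these 2 controls, which leaves 2 heterozygous against 6 homozygous libraries. That fit is not known to be matched for region. Slc10a2, the ileal bile acid transporter, was at 26.8 and 30.3 CPM of the library total in heterozygous replicates 1 and 2, against 116.5 to 371 in homozygous libraries. Fgf15, another regional marker, was at 1.30 and 22.4 against 17.1 to 93.3. Whether region or genotype lay behind these values was not tested.

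Eif4g2 itself (ENSMUSG00000005610, chromosome 7, 111067750 to 111083030, minus strand, GRCm38) was at 400.0, 325, 316 and 314 CPM in the heterozygous libraries and at 112 to 154 CPM, median 128, in the homozygous ones. The groups did not overlap. The log2 fold change was -1.37 (SE 0.12, adjusted p = 2.38e-06), with 131 ± 15.1 CPM (SD, n = 6) remaining in homozygous villi against 339 ± 41.0 CPM (SD, n = 4). Counts are per gene, so reads from exons outside the floxed part and from cells without Cre are included in what remained. In bulk samples, fewer cells of a type and less RNA per cell cannot be told apart, here and in each result that follows.

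Among 29 translation initiation factors and their regulators, Eif4g2 included, 7 rose and 4 fell, against 42.5% of the 15107 tested genes called in either direction. Eif4g3, the paralog of Eif4g1 that joins the cap-binding complex, rose from 47.7, 45.3, 54.3 and 46.1 CPM to 78.8 to 117 CPM (log2 1.06, SE 0.12, adjusted p = 2.19e-05), with no overlap. Eif4a2, an RNA helicase of the same complex, rose by 0.70 (SE 0.12), and Eif4ebp1, which binds and restrains eIF4E, by 1.52 (SE 0.27). Eif4h, a cofactor of the helicase, fell by 0.63 (SE 0.12). The list's median log2 change of 0.04 was close to the 0.05 of all tested genes.

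Over all tested genes, 3155 rose (20.9%) and 3267 fell (21.6%) in homozygous villi. In 4382 genes (29%) the call came with groups that did not overlap, and 3137 genes (20.8%) were called with a log2 change beyond 1. Those called with a rise above 1 were 1416 (9.37%) and those with a fall below -1 were 1721 (11.4%). Groups did not overlap in 4516 tested genes (29.9%), called or not. Without the 2 controls lacking Fabp6, 4134 of 16047 genes were called (25.8%), 1878 higher (11.7%) and 2256 lower (14.1%), and 3894 of the 4134 were among the 6422. The counts of list members that follow are set against these shares.

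Among genes with a mean log2 CPM no lower than 3, the largest rises with no overlap, of which 11 are given, were led by Atg9b, a lipid scramblase of autophagy, which stood at 0.293 to 0.761 CPM in controls and at 13.6 to 262 CPM, median 38.2, in homozygous libraries (log2 7.21, SE 1.19, adjusted p = 0.00128). Psrc1, a microtubule-associated protein and p53 target, was at 0.237, 0.293, 0.571 and 0 CPM in controls and at 18 to 53.3 CPM in homozygous libraries (log2 6.82, SE 0.52). Cdkn2a, which encodes the cell cycle inhibitor p16 and the p53 activator p19ARF, was at 0.331, 0, 0.19 and 0.231 CPM in controls and at 10.2 to 34.9 CPM, median 13.7, in homozygous libraries (log2 6.51, SE 0.58, adjusted p = 4.53e-06). Each of these was nearly silent in every control. Vstm2l rose by 5.33 (SE 0.30) and Ces2b, a carboxylesterase, by 4.82 (SE 0.51). Mboat1, a lysophospholipid acyltransferase, Bglap3, of the osteocalcin cluster, and Wwc2, a scaffold of the Hippo pathway, rose by 4.44, 4.39 and 4.32. Lama5, the laminin alpha 5 chain of basement membranes, Paqr8, a membrane progestin receptor, and Ano1, a calcium-activated chloride channel, rose by 4.32, 4.10 and 4.02.

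Above the same level of expression, the 12 largest falls began with Afp, alpha-fetoprotein, at 36.5, 24.2, 25.3 and 38.1 CPM in controls and 0 to 0.334 CPM in homozygous libraries (log2 -7.26, SE 0.36, adjusted p = 2.63e-08). Tmprss15, the enteropeptidase that activates trypsinogen, was at 47.0, 8.27, 40.3 and 37.2 CPM against 0 to 0.945 CPM (log2 -6.45, SE 0.69). Adgrd1, an adhesion receptor, fell by 5.76, Slc30a2, a zinc exporter, by 5.58, and Fmo1, a flavin monooxygenase, by 5.56. The groups did not overlap in any of these, which was a condition of the choice. Ubd, an interferon-inducible ubiquitin-like modifier, fell by 5.56 from 39.8 to 396 CPM among controls. Ncald, a calcium sensor, and AI427809 fell by 5.52 and 5.49. Dao, D-amino acid oxidase, went from 30.9, 25, 21.6 and 23.5 CPM to 0.271 to 0.863 CPM (log2 -5.40, SE 0.25, adjusted p = 8.73e-09). Dclk1, a tuft cell marker, Nts, the gut hormone neurotensin, and Fzd4, a Wnt receptor, fell by 5.28, 5.22 and 5.22. All 23 genes given here kept their call and direction without the 2 controls lacking Fabp6. They were chosen as called and without overlap against every control, so their direction in that fit was all but fixed.

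**Figure D1:**
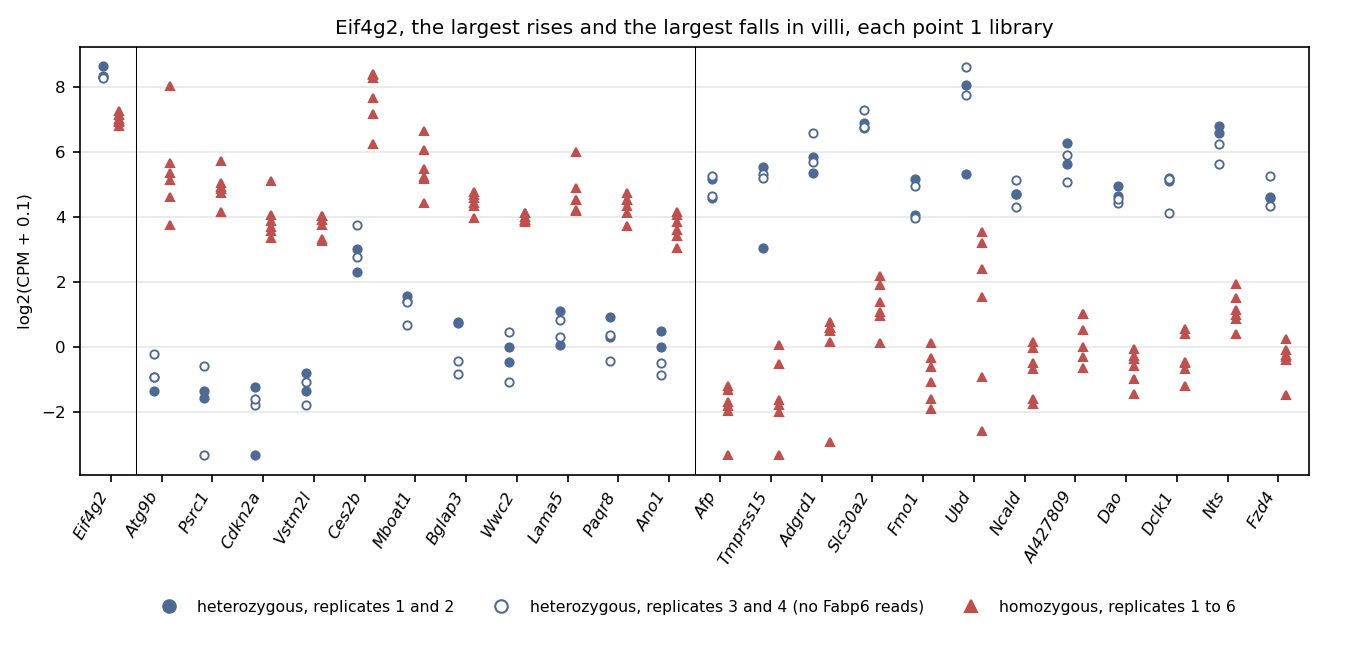
Level of Eif4g2 and of 11 of the largest rises and the 12 largest falls, among genes with a mean log2 CPM no lower than 3, in each of the 10 villus libraries, as log2(CPM + 0.1), 1 point per library. Open circles are heterozygous replicates 3 and 4, which had no Fabp6 reads, and they lie with the other controls, apart from the homozygous libraries, in all of these genes. The rises and falls were chosen for groups that did not overlap.

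Cholesterol synthesis genes rose as a block. Cells sense sterols in the endoplasmic reticulum, and when sterols are short the factor SREBP-2, encoded by Srebf2, is released and raises the genes of the pathway. Of 24 sterol synthesis and uptake genes, all tested, 21 rose and none fell, 20 of them without overlap, against 20.9% of all tested genes that rose and 12.8% that rose without overlap. The list's median log2 change was 1.84, against 0.05 for all tested genes, and 19 of 24 rose without the 2 controls lacking Fabp6. The summed level of the list was 1259 to 1594 CPM in controls and 3076 to 5704 CPM in homozygous libraries.

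Hmgcs1, which makes HMG-CoA, stood at 185, 142, 98.7 and 121 CPM in controls and at 438 to 997 CPM, median 529, in homozygous libraries (log2 2.17, SE 0.27, adjusted p = 4.85e-05). The groups did not overlap in Hmgcs1. Sqle, squalene epoxidase, rose from 24.6 to 54.5 CPM to 187 to 515 CPM (log2 3.21, SE 0.33), and Cyp51, lanosterol demethylase, from 33.0 to 59.9 CPM to 256 to 621 CPM (log2 3.25, SE 0.28). Insig1, which holds SREBP in the endoplasmic reticulum, rose by 1.83 (SE 0.19) and Srebf2 by 1.47 (SE 0.18). The 3 members that were not called, Stard4, Sc5d and Ebp, had log2 changes of 0.07 to 0.29.

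The members moved together, and so the promoters of the list were searched for the letters of the elements that SREBP and its partners are known to bind. The RefSeq promoter table (GRCm38.p6, the 250 bases before the start of the gene) held 16 of the 24 genes. The sterol regulatory element TCACNCCAC was found on either strand in 1 of 16, Hmgcs1, against 1.22% of 27025 genes, the E-box CACGTG in 4 of 16 against 6.86%, and the CCAAT box, bound by the SREBP partner NF-Y, in 16 of 16 against 37.5%. A match describes the letters only. The 3 sequences below show each of the motifs, in capitals, with CCAAT written as ATTGG where it lies on the other strand. They are the promoters of Hmgcs1 (chr13:119690101-119690350, plus strand), Cyp51 (chr5:4104698-4104947, minus strand) and Insig1 (chr5:28071162-28071411, plus strand).
Hmgcs1: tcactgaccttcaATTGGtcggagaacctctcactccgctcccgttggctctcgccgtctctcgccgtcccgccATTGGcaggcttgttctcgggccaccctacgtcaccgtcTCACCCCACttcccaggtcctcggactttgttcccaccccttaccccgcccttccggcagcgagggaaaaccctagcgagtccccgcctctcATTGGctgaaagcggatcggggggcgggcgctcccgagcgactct
Cyp51: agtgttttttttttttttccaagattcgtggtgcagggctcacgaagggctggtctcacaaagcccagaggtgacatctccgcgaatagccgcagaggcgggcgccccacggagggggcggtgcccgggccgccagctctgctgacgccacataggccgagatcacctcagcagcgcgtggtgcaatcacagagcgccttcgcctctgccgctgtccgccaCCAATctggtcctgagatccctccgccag
Insig1: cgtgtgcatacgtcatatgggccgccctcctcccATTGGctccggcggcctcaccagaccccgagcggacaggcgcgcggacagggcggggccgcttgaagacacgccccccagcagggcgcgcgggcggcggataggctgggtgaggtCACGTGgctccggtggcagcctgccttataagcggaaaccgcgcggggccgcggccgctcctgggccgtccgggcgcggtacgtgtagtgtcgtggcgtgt
Hmgcs1 holds 3 CCAAT boxes and the sterol element TCACCCCAC, Cyp51 holds 1 CCAAT box, and Insig1 holds 1 CCAAT box and 1 E-box. Their log2 changes were 2.17, 3.25 and 1.83. Sc5d and Ebp, which were not called, were among the 16 genes as well. Sc5d held an E-box and a CCAAT box and Ebp the CCAAT box, so the CCAAT box was found in risen and uncalled members alike.

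Fatty acid synthesis genes rose less uniformly: 9 of 16 tested rose (56.2%, against 20.9% of all genes) and 1 fell. Leaving out the 2 controls gave 7 risen (43.8%, against 11.7%) and none fallen. Scd2, a stearoyl-CoA desaturase, stood at 61.2, 45.4, 29.1 and 22.6 CPM in controls and at 256 to 676 CPM in homozygous libraries (log2 3.26, SE 0.36). Its paralog Scd1 was at 9.04, 13.6, 2.62 and 1.43 CPM against 32.7 to 104 CPM (log2 3.17, SE 0.64), with its lowest values in the 2 controls lacking Fabp6. Fasn, fatty acid synthase, rose from 19.9 to 21.8 CPM to 33.9 to 116 CPM (log2 1.57, SE 0.28).

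**Figure D2:**
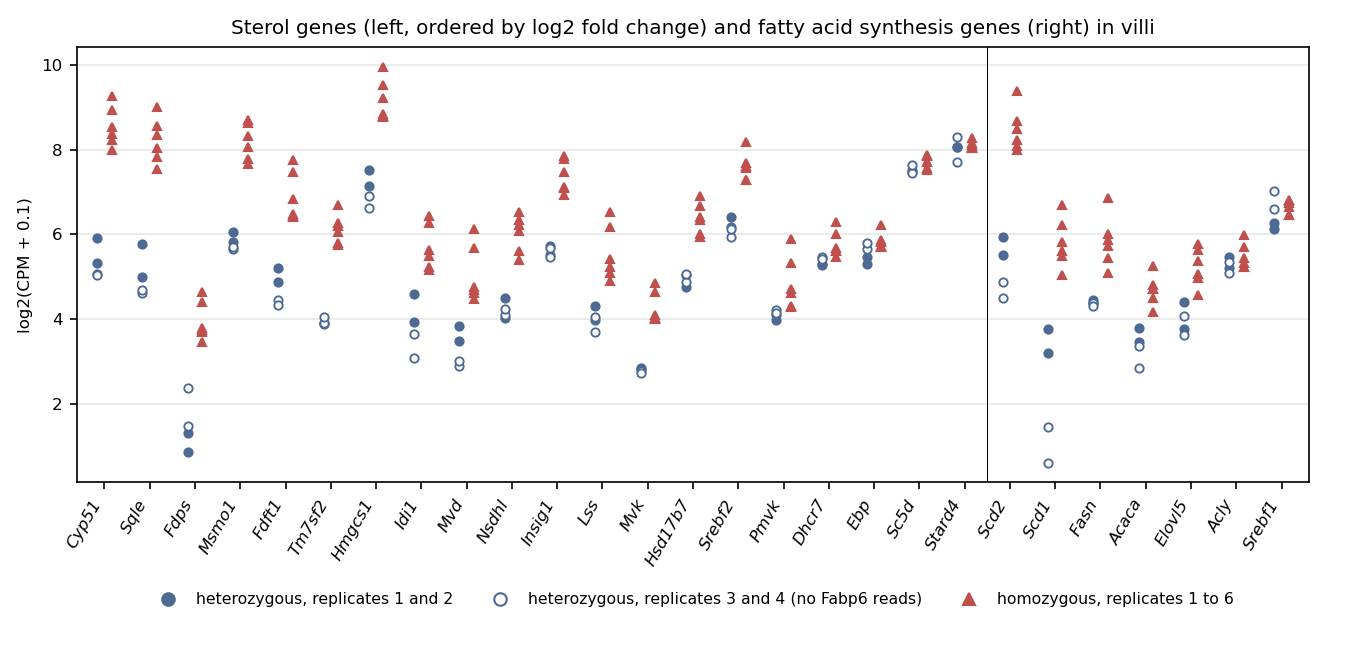
Level of 20 sterol and 7 fatty acid synthesis genes in each villus library, as log2(CPM + 0.1), 1 point per library, with heterozygous replicates 3 and 4 as open circles. In 16 of the 20 sterol genes plotted the homozygous points lie above every control.

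Most targets of p53, the transcription factor of the DNA damage and stress response, rose. Of 24, 17 rose (70.8%, against 20.9% of all genes) and 2 fell, with 13 (54.2%, against 11.7%) and 2 without the 2 controls. The list's median log2 change was 0.75, and its summed level was 1150 to 1284 CPM in controls against 1571 to 2403 CPM. Eda2r, a death receptor of the TNF family, was at 0 to 0.146 CPM in controls and at 7.17 to 17.9 CPM in homozygous libraries (log2 7.58, SE 0.53, adjusted p = 3.53e-07). Phlda3, an inhibitor of AKT, was at 0 to 0.183 CPM against 4.20 to 16.8 CPM (log2 7.04, SE 0.68). Both were nearly absent from controls, as Psrc1 was. Ccng1, cyclin G1, rose from 65.6, 54.9, 45.6 and 55.1 CPM to 129 to 270 CPM (log2 1.66, SE 0.19), Bax, which opens the mitochondrial membrane in apoptosis, by 1.49 (SE 0.19) and Zmat3 by 1.45 (SE 0.13).

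Cdkn1a and Mdm2, both classical targets, gave calls that depended on the libraries. Cdkn1a, the cell cycle inhibitor p21, was at 319, 234, 263 and 251 CPM in controls and at 302 to 818 CPM, median 364, in homozygous libraries (log2 0.75, SE 0.26, adjusted p = 0.0324). The groups overlapped, and without the 2 controls the value was 0.69 (adjusted p = 0.174). Mdm2, which degrades p53, changed by 0.46 (SE 0.14, adjusted p = 0.0211), also with overlap, and by 0.48 (adjusted p = 0.0958) without them. Fas, another death receptor, fell by 1.11 (SE 0.15) and Sesn1, a sestrin, by 0.57 (SE 0.13), both without overlap.

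**Figure D3:**
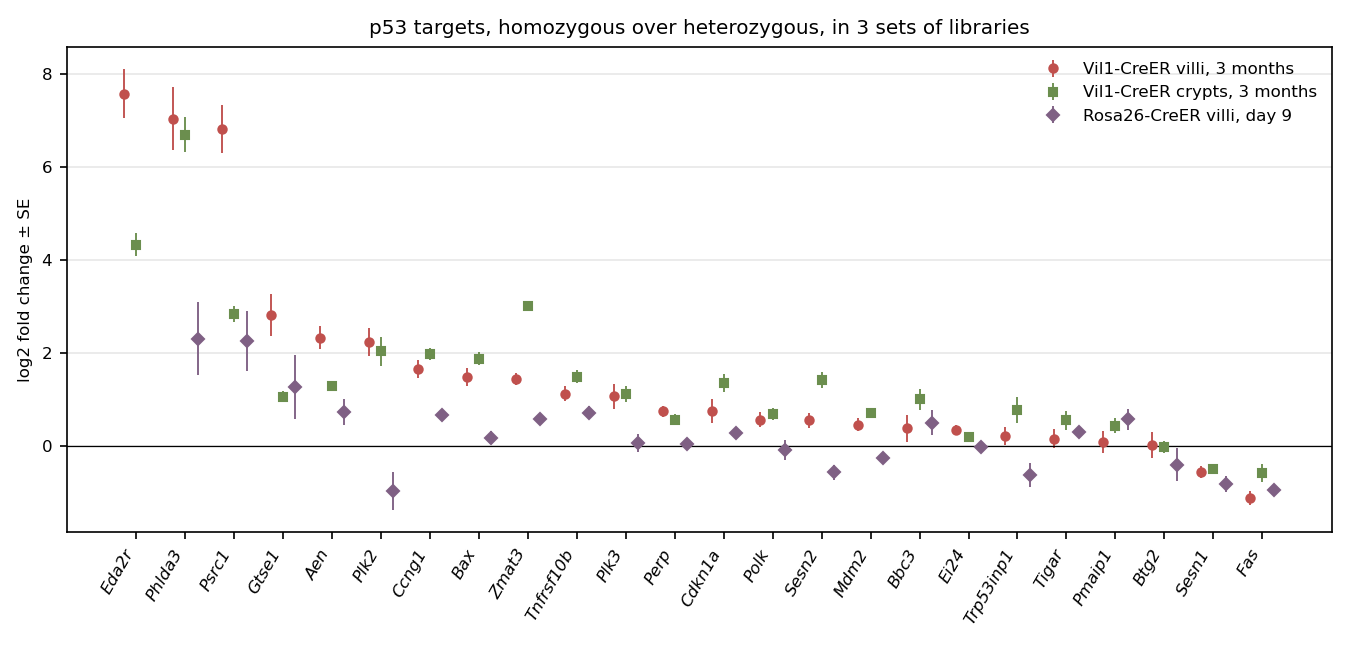
Log2 fold change, homozygous minus heterozygous, with its SE for the p53 target genes in Vil1-CreER villi, Vil1-CreER crypts and Rosa26-CreER villi. Psrc1, Phlda3 and Eda2r have the largest rises in Vil1-CreER villi, and Fas and Sesn1 lie below 0.

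Genes of enterocyte function changed in both directions. Of the 14 enterocyte markers, 2 fell (14.3%) and none rose, both below the 21.6% and 20.9% of all tested genes. Of 25 brush border genes, 12 fell (48%) and 3 rose (12%), with 8 and 2 without the 2 controls, against 14.1% and 11.7% of all genes in that fit. Ace, angiotensin-converting enzyme, stood at 1798, 1780, 2026 and 2933 CPM in controls and at 469 to 1080 CPM, median 655, in homozygous libraries (log2 -1.62, SE 0.24, adjusted p = 0.000154). Mme, the peptidase neprilysin, fell by 1.54 (SE 0.24), Lct, lactase, by 1.47 (SE 0.27), and Cubn, the receptor for the vitamin B12 carrier, by 2.29 (SE 0.44). In the other direction, Mgam, the maltase-glucoamylase of starch digestion, rose from 2342, 2028, 2445 and 2069 CPM to 3615 to 5094 CPM (log2 0.91, SE 0.16), and Enpep, aminopeptidase A, by 0.66 (SE 0.16). Neither pair of groups overlapped.

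Of 35 solute carriers, 10 fell (28.6%) and 7 rose (20%), close to the 21.6% and 20.9% of all genes, and 9 and 4 without the 2 controls. Slc30a2 was at 120, 108, 111 and 158 CPM against 1.00 to 4.44 CPM. Slc2a2, the basolateral glucose transporter GLUT2, was at 568, 395, 648 and 490 CPM against 137 to 382 CPM (log2 -1.16, SE 0.25, adjusted p = 0.00282). The groups did not overlap in either. Slc5a4a, a glucose sensor of the SGLT family, fell by 2.58 (SE 0.38). Slc10a2, the ileal bile acid transporter, was at 31.2, 32.6, 0.913 and 0.578 CPM in controls and at 109 to 309 CPM, median 193, in homozygous libraries (log2 3.66, SE 1.10, adjusted p = 0.0243). Its 2 lowest values were the controls lacking Fabp6, and without them the log2 change was 2.69 (adjusted p = 0.00172).

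Of 29 genes of lipid absorption, 11 fell (37.9%, against 21.6% of all genes) and 3 rose (10.3%, against 20.9%). Without the 2 controls 4 fell (13.8%) and 2 rose, and 14.1% of all genes fell in that fit. Abca1, which exports cholesterol to HDL, stood at 125, 104, 102 and 115 CPM in controls and at 6.52 to 32.9 CPM in homozygous libraries (log2 -2.66, SE 0.34, adjusted p = 0.000132), without overlap. Cd36, a fatty acid receptor, fell by 1.46 (SE 0.28) and Acsl3, an acyl-CoA synthetase, rose by 2.20 (SE 0.30). In the retinoid pathway, which turns carotenoids into vitamin A and stores it, 8 of 15 fell (53.3%, against 21.6%). Those that rose were 4 (26.7%, against 20.9%). Leaving out the 2 controls gave 7 fallen (46.7%, against 14.1%) and 4 risen (26.7%, against 11.7%). Lrat, which esterifies retinol, went from 33.3, 31.7, 33.2 and 47.1 CPM to 2.95 to 4.91 CPM (log2 -3.13, SE 0.17, adjusted p = 3.75e-08), and Bco1, which cleaves beta-carotene, from 2.21 to 5.59 CPM to 0.131 to 0.56 CPM (log2 -3.50, SE 0.45). Isx, the factor that represses Bco1, rose by 0.77 (SE 0.16) and Cyp26b1, which degrades retinoic acid, by 2.28 (SE 0.53).

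Of 27 genes of drug metabolism, 13 fell (48.1%, against 21.6% of all genes) and 4 rose (14.8%, against 20.9%). Leaving out the 2 controls gave 10 fallen (37%, against 14.1%) and 3 risen (11.1%, against 11.7%). Cyp3a11, a major cytochrome P450, was at 2484, 3371, 3060 and 4025 CPM in controls and at 378 to 1790 CPM, median 986, in homozygous libraries (log2 -1.68, SE 0.34, adjusted p = 0.00178), and Cyp3a25 fell by 1.81 (SE 0.18). Cyp3a13 of the same family rose from 1246 to 1983 CPM to 2690 to 4394 CPM (log2 1.01, SE 0.19). Of 11 carboxylesterases, 4 were higher (36.4%, against 20.9% of all genes) and 3 lower (27.3%, near the 21.6% of all genes). Leaving out the 2 controls gave 3 higher (27.3%, against 11.7%) and 2 lower (18.2%, near 14.1%). Ces2a was at 482, 775, 694 and 1053 CPM against 1504 to 3693 CPM (log2 1.77, SE 0.27), Ces2b at 4.88, 8.02, 6.81 and 13.5 CPM against 76.3 to 340 CPM, and Ces1d fell by 4.02 (SE 0.40). The genes of both families are close paralogs, so reads may be split between members.

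Of 28 fatty acid oxidation genes, 12 fell (42.9%, against 21.6% of all genes), 1 rose and 15 were not called, and 8 fell (28.6%, against 14.1%) and 1 rose without the 2 controls. Pdk4, the kinase that turns cells from glucose to fatty acids, was at 15.4, 49.7, 39.1 and 59.2 CPM against 0.735 to 4.80 CPM (log2 -4.23, SE 0.53), and Hadh, of the oxidation spiral, fell by 1.19 (SE 0.16). Acadl, the long-chain acyl-CoA dehydrogenase, rose by 1.11 (SE 0.13). In citrulline and arginine synthesis, 7 of 15 fell (46.7%, against 21.6%) and 2 rose (13.3%, against 20.9%). Leaving out the 2 controls gave 6 fallen (40%, against 14.1%) and none risen. Otc, ornithine transcarbamylase, went from 184, 153, 129 and 171 CPM to 53.5 to 67.5 CPM (log2 -1.42, SE 0.12, adjusted p = 1.12e-06), and Slc25a15, which brings ornithine into mitochondria, fell by 1.24 (SE 0.17). Cps1, the step before Otc, rose by 1.28 (SE 0.34, adjusted p = 0.0103) with overlapping groups, and was at 1.01 (adjusted p = 0.119) without the 2 controls.

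Genes of the secretory and chemosensory lineages fell in nearly all tested members. Of 25 tested enteroendocrine genes of 28, all 25 fell without overlap, against 16.2% of all tested genes that fell without overlap. Their median log2 change was -2.93, and their sum fell from 658 to 1141 CPM in controls to 72.3 to 130 CPM. Gip, the incretin hormone, was at 222, 230, 139 and 192 CPM in controls and at 4.67 to 15.1 CPM, median 11.1, in homozygous libraries (log2 -4.20, SE 0.28, adjusted p = 4.09e-07). Sst, somatostatin, was at 41.1, 55.9, 29.3 and 4.66 CPM against 0.63 to 2.36 CPM (log2 -4.60, SE 0.58). The groups did not overlap for either hormone. Cck, cholecystokinin, fell by 3.93 (SE 0.29), Chgb and Chga, the chromogranins of secretory granules, by 2.85 (SE 0.25) and 1.89 (SE 0.17), and Reg4, made by these and goblet cells, by 4.57 (SE 0.28).

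Tuft cell genes had the lowest median of the 41 lists. Of 19 tested of 20, all 19 fell without overlap, with a median of -4.33 and a summed level of 242 to 351 CPM in controls against 24.9 to 45.8 CPM. Dclk1 stood at 37.2, 34.5, 17.6 and 35.9 CPM against 0.338 to 1.38 CPM. Trpm5, the taste channel, was at 34.6, 31.4, 25.3 and 37.1 CPM against 1.81 to 3.20 CPM (log2 -3.62, SE 0.17, adjusted p = 1.08e-08). Pou2f3, the factor that defines the lineage, was at 3.83, 3.59, 3.00 and 2.24 CPM against 0.0775 to 0.334 CPM (log2 -4.33, SE 0.38). All 3 genes were low in every homozygous library. Cd24a, also found in Paneth cells, fell by 2.46 (SE 0.26).

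Goblet cell genes fell in 18 of 20 tested members (90%, against 21.6% of all genes), all 18 without overlap. Their median was -1.79, with sums of 12670 to 17650 CPM against 7267 to 8858 CPM. Muc2, the gel-forming mucin, was at 592, 1221, 1045 and 860 CPM in controls and at 164 to 391 CPM, median 313, in homozygous libraries (log2 -1.63, SE 0.23, adjusted p = 0.000115). Fcgbp, a mucus protein, fell by 2.71 (SE 0.21), Zg16, a lectin of the mucus, by 2.47 (SE 0.19), and Atoh1, the factor that sets the secretory fate, from 14.6 to 23.7 CPM to 3.11 to 4.16 CPM (log2 -2.37, SE 0.17). Muc13, a membrane mucin that enterocytes also make, was the 1 member that rose, by 0.62 (SE 0.17). Paneth cells sit at the crypt base. Of 14 tested Paneth cell genes of 17, 12 fell (85.7%, against 21.6%). Among them were Defa24, an alpha-defensin with near-identical copies (23.7 to 53.7 CPM against 0.485 to 4.38 CPM, log2 -4.08, SE 0.52), and Itln1, a lectin (log2 -3.04, SE 0.19). Lyz1, lysozyme, overlapped, at 101, 137, 43.1 and 36.2 CPM against 13.3 to 63.9 CPM (log2 -1.42, SE 0.49, adjusted p = 0.0419). The counts of the enteroendocrine, tuft and goblet lists were the same without the 2 controls lacking Fabp6.

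**Figure D4:**
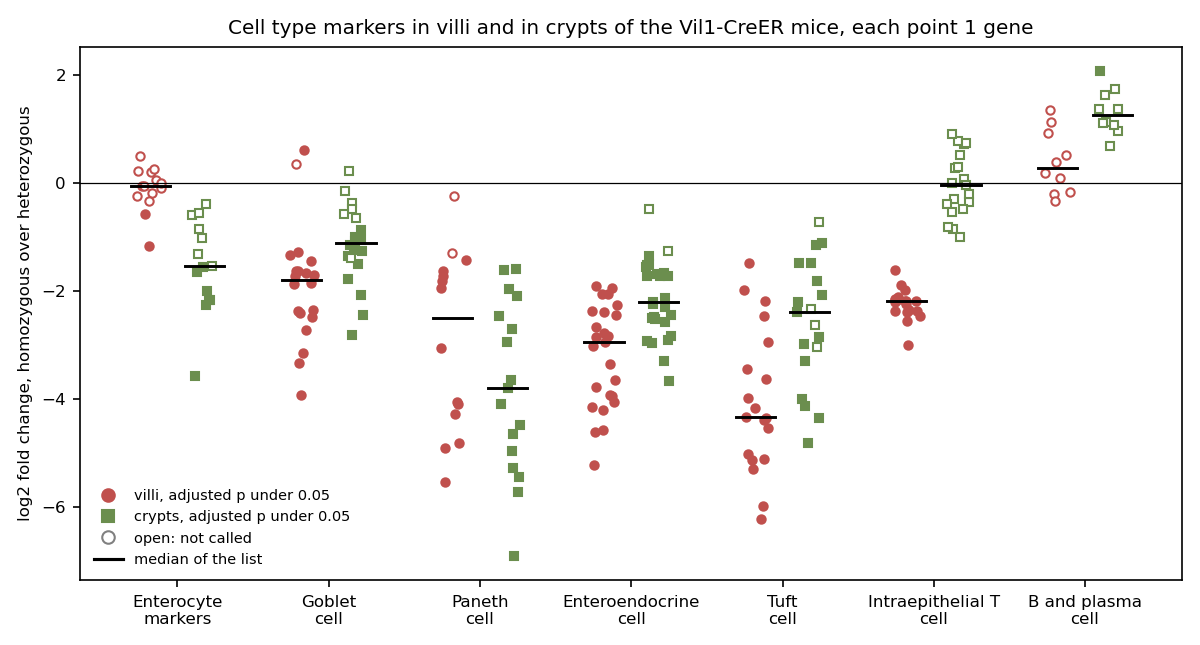
Log2 fold change, homozygous minus heterozygous, of each tested gene of the enterocyte, goblet, Paneth, enteroendocrine, tuft, intraepithelial T cell and B and plasma cell lists, in Vil1-CreER villi and crypts. The tuft and enteroendocrine genes lie lowest in villi, with medians of -4.33 and -2.93, and the T cell genes lie below 0 in villi and around 0 in crypts.

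Genes of intraepithelial lymphocytes, which do not express the Vil1 driver, were lower too. All 19 T cell genes fell without overlap, with a median of -2.19 and sums of 701 to 1419 CPM in controls against 114 to 425 CPM, and all 19 fell without the 2 controls. Cd8a was at 67.2, 61.8, 128 and 104 CPM against 10.8 to 37.1 CPM (log2 -2.18, SE 0.35). Gzma, a granzyme of cytotoxic cells, was at 287, 205, 499 and 480 CPM against 31.2 to 140 CPM (log2 -2.37, SE 0.41), and Ccl5, a chemokine they secrete, fell by 2.99 (SE 0.43). In Cd8a and Gzma the 2 controls lacking Fabp6 were the highest. The 10 B and plasma cell genes had a median log2 change of 0.29, from -0.32 to 1.36, and none was called. Their median was -0.51 without the 2 controls.

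Some antigen presentation and interferon genes fell. Of 9 genes of the MHC class II pathway, 6 fell (66.7%, against 21.6% of all genes), but 2 (22.2%, against 14.1%) without the 2 controls. The 9 genes summed to 5148 to 8578 CPM against 225 to 2728 CPM. H2-Aa, a class II chain, was at 1167, 929, 1368 and 1390 CPM in controls and at 11.8 to 468 CPM, median 181, in homozygous libraries (log2 -2.62, SE 0.87, adjusted p = 0.036). The groups did not overlap, yet homozygous libraries differed widely among themselves, and without the 2 controls the value was -2.41 (adjusted p = 0.164). Of 36 interferon-stimulated genes, 15 fell (41.7%, against 21.6%) and none rose, with 9 (25%, against 14.1%) and none without the 2 controls. Gbp6, a guanylate-binding protein, fell by 3.54 (SE 0.52) and Psmb8, of the immunoproteasome, by 1.59 (SE 0.22). Of 22 antimicrobial and inflammatory genes, 7 rose (31.8%) and 5 fell (22.7%, near the 21.6% of all genes), and 3 and 5 without the 2 controls. Dmbt1, a mucosal scavenger receptor, rose from 244, 109, 260 and 99.1 CPM to 336 to 1440 CPM (log2 2.19, SE 0.51, adjusted p = 0.0057).

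Genes of the fetal-like and regenerating epithelium rose in 10 of 21 tested members (47.6%, against 20.9% of all genes), all 10 without overlap. They fell in 2 (9.52%, against 21.6%). Without the 2 controls 10 of 23 rose (43.5%, against 11.7%) and 1 fell. Ereg, epiregulin, a ligand of the EGF receptor, was at 4.54, 5.71, 4.98 and 5.13 CPM in controls and at 39.1 to 83.1 CPM, median 45.5, in homozygous libraries (log2 3.35, SE 0.24, adjusted p = 4.1e-07). S100a6, a calcium-binding protein, was at 26.1, 26.8, 23.0 and 19.6 CPM against 115 to 197 CPM (log2 2.60, SE 0.17). In both genes every homozygous library was above every control. Il33, an alarmin, rose by 1.78 (SE 0.26) and Krt19, a keratin, by 1.48 (SE 0.28).

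The EGF ligands Areg, amphiregulin, and Btc, betacellulin, rose as Ereg did, by 1.77 (SE 0.40) and 1.38 (SE 0.20), and the receptor Egfr by 1.34 (SE 0.31). Among 27 tested genes of the BMP, EGF and Notch pathways 10 rose (37%, against 20.9% of all genes) and 6 fell (22.2%, near the 21.6% of all genes). Without the 2 controls 8 rose (29.6%, against 11.7%) and 3 fell (11.1%, against 14.1%). Jag2, a Notch ligand, rose by 2.16 (SE 0.42) and Heyl, a Notch target, fell by 2.57 (SE 0.58). Of 19 tested junction genes, 11 rose (57.9%, against 20.9%) and none fell, with 6 (31.6%, against 11.7%) and none without the 2 controls. Cldn4, a sealing claudin, was at 151, 192, 197 and 73.8 CPM against 313 to 833 CPM (log2 1.71, SE 0.33), and Cdh1, E-cadherin, at 787, 713, 914 and 845 CPM against 1152 to 1483 CPM (log2 0.69, SE 0.14). Neither overlapped. Cldn2, a pore-forming claudin of crypts, rose by 2.58 (SE 0.63, adjusted p = 0.00915), and its value was 2.00 (adjusted p = 0.0557) without the 2 controls. Epcam, the pan-epithelial adhesion protein, rose from 1873, 1970, 2117 and 2047 CPM to 2748 to 3807 CPM (log2 0.75, SE 0.14), and the 12 epithelial markers summed to 14750 to 17710 CPM against 17340 to 23040 CPM.

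Of 29 tested targets of ATF4, the factor of the integrated stress response, 12 rose (41.4%, against 20.9% of all genes) and 6 fell (20.7%, near the 21.6% of all genes). Without the 2 controls 5 of 30 rose (16.7%, against 11.7%) and 3 fell. Slc7a3, a cationic amino acid transporter, went from 0.0732 to 0.193 CPM to 2.51 to 5.00 CPM (log2 4.94, SE 0.39), while Trib3, a pseudokinase of the same response, fell from 10.3, 10.3, 11.3 and 13.1 CPM to 1.44 to 5.06 CPM (log2 -2.11, SE 0.30). Of 23 genes of the unfolded protein response, 8 rose (34.8%, against 20.9%) and 3 fell (13%, against 21.6%). Leaving out the 2 controls gave 6 risen (26.1%, against 11.7%) and 1 fallen (4.35%, against 14.1%). Hspa5, the chaperone BiP, was at 452, 361, 498 and 462 CPM against 574 to 917 CPM (log2 0.80, SE 0.17), Pdia4, a disulfide isomerase, rose by 1.03 (SE 0.17), and Ern2, the sensor specific to mucus-secreting cells, fell by 1.68 (SE 0.20).

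Histone modifiers, which the study's title names as eIF4G2 targets at the level of translation, were measured here only as RNA. Of 23 histone acetyltransferases, methyltransferases and cofactors, 6 rose (26.1%) and 4 fell (17.4%), near the 20.9% and 21.6% of all genes, with 6 and 2 without the 2 controls, and the median log2 change was 0.07. Ep300, the acetyltransferase p300, was at 94.4, 75.3, 89.6 and 92.4 CPM in controls and at 160 to 195 CPM, median 173, in homozygous libraries (log2 0.98, SE 0.11, adjusted p = 1.65e-05). Its paralog Crebbp was at 44.2, 40.4, 44.0 and 44.5 CPM against 69.1 to 89.1 CPM (log2 0.84, SE 0.10, adjusted p = 3.96e-05). Both rose without overlap. Kat2a, the acetyltransferase GCN5, rose by 1.79 (SE 0.31) and its paralog Kat2b, PCAF, fell by 0.76 (SE 0.14). Kmt2d, an H3K4 methyltransferase of enhancers, rose by 0.56 (SE 0.13).

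Among 30 transcription factors of intestinal identity, 9 fell (30%, against 21.6% of all genes) and 4 rose (13.3%, against 20.9%), and 5 fell (16.7%, against 14.1%) and 2 rose without the 2 controls. The risen count was 1 without heterozygous replicate 2 or 4 and 2 without heterozygous replicate 1 or homozygous replicate 1. Foxa3, a factor of secretory cells, fell by 2.23 (SE 0.22), Hnf4g, of enterocyte differentiation, by 0.65 (SE 0.17), and Cdx2, the intestinal master regulator, from 136, 127, 124 and 150 CPM to 85.3 to 117 CPM (log2 -0.47, SE 0.12). Crypt programmes were present at low levels in villi. Of 18 tested stem cell genes 4 rose (22.2%) and 2 fell, with 1 and 1 without the 2 controls, and only 1 rose without heterozygous replicate 1 or 4. Lgr5, the stem cell marker, was at 0.568, 2.23, 1.03 and 0.501 CPM against 0.0387 to 0.468 CPM (log2 -2.21, SE 0.57). Of 27 proliferation genes 7 rose (25.9%, against 20.9% of all genes) and 1 fell, with 3 and none without the 2 controls. The risen count rested on single libraries, at 3 without heterozygous replicate 1, 2 without heterozygous replicate 4, 4 without homozygous replicate 4 and 13 without homozygous replicate 5. Myc rose from 2.18, 2.20, 3.19 and 2.08 CPM to 3.56 to 16.3 CPM (log2 1.94, SE 0.37).

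**Figure D5:**
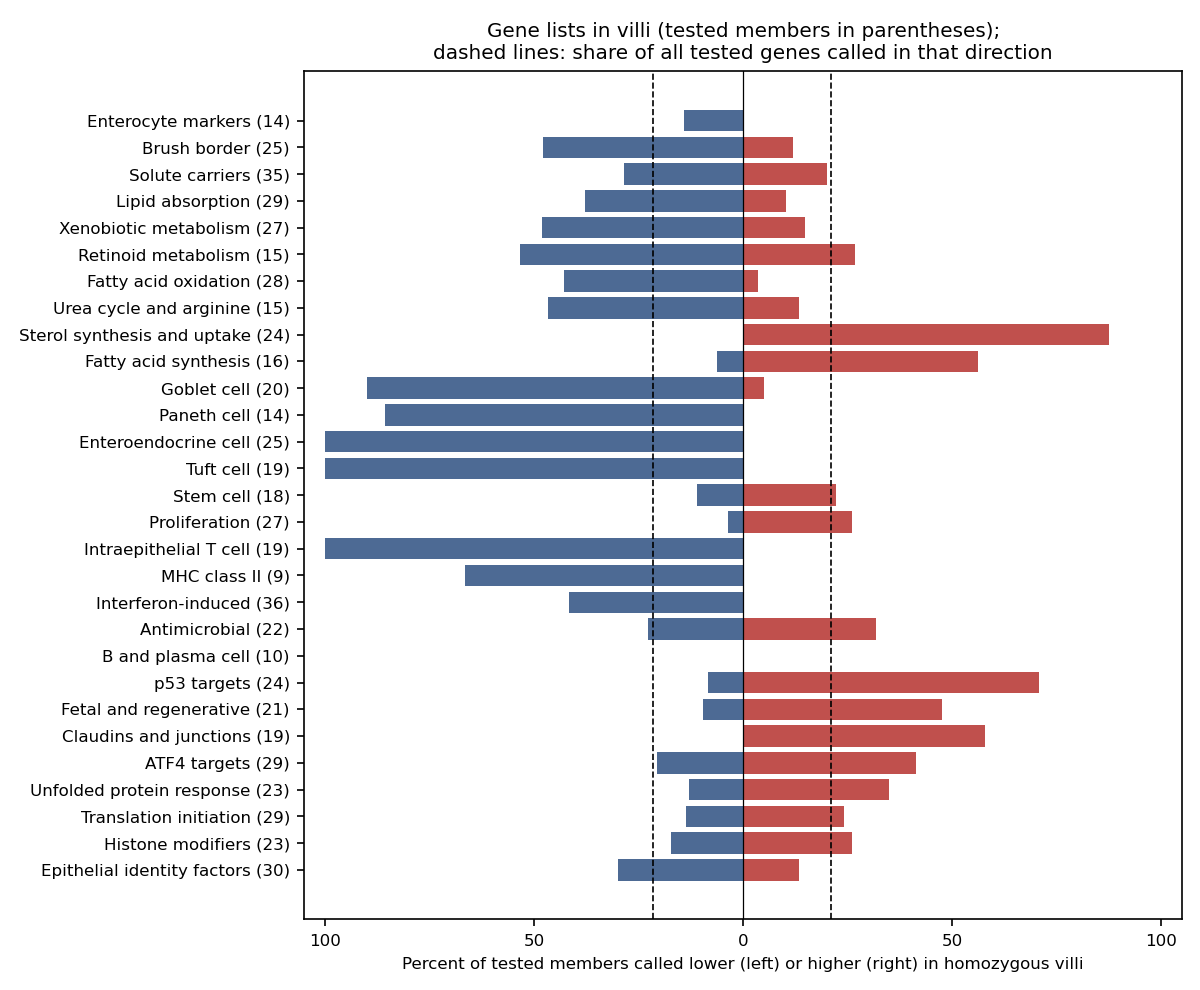
Percent of the tested members of each gene list that were called higher or lower in homozygous villi, with dashed lines at the shares of all tested genes, 20.9% higher and 21.6% lower. Sterol synthesis stands farthest on the higher side, and the enteroendocrine, tuft and T cell lists reach the full length on the lower side.

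In the crypts of the same experiment (4 heterozygous and 3 homozygous libraries), 4960 of 16954 genes were called (29.3%), and the difference of the genotype effect, villi minus crypts, was called in 2766 of 17821 genes (15.5%). Sterol genes had a more positive effect in villi in 13 of 24, against 9.38% of all genes, with 18 of 24 risen in crypts (11.6% of all genes). T cell genes had a more negative effect in villi in 9 of 19, against 6.14% of all genes, and their median log2 change in crypts was -0.02. The T cell count was 15 with the animal as a block. That fit held only the 7 mice with both tissues and left out homozygous villus replicates 3, 5 and 6. Brush border genes had a more positive effect in villi in 12 of 25, with 18 of 24 fallen in crypts (17.7% of all genes), and stem cell genes in 12 of 20, with 17 of 20 fallen in crypts. Without the 2 controls lacking Fabp6, whose crypts were left out too, 659 genes were called (3.62%). They held 4 sterol genes with a more positive effect (2.15% of all genes), 2 T cell genes with a more negative one (1.48%) and none of the brush border or stem cell genes, so that each call on those last 2 lists was lost. The lists' median differences were then 1.32 and 1.35, against 1.29 and 1.49 with all libraries.

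Of the 4 largest differences each way chosen by the rule for named genes, those of S100a6, Psrc1 and Bglap3 kept their call without the 2 controls. S100a6 was at 2.60 in villi and 5.99 in crypts (difference -3.36, adjusted p = 2.03e-06), and Psrc1 at 6.82 and 2.83 (difference 4.02, adjusted p = 0.000998). Bglap3 was at 4.39 in villi and 0.49 in crypts (difference 3.92, adjusted p = 0.00274). Ces2b was at 4.82 and 1.11 (difference 3.73), and Pnliprp2, a pancreatic lipase-related protein of Paneth cells, at -1.81 and -5.71 (difference 3.93). The white blood cell genes Plek, Ppp1r16b and Rac2 had differences of -3.38, -3.26 and -3.23, and Plek was not called with the animal as a block (adjusted p = 0.0655). Without the 2 controls the adjusted p of these 5 lay above the threshold, at 0.0523, 0.0564, 0.119, 0.058 and 0.0953 in the order named.

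Villi of Rosa26-CreER mice, also titled homozygous and heterozygous, were sampled on day 9 (5 libraries of each genotype). These mice too received tamoxifen at 100 mg/kg daily for 4 days. In their villi 4504 of 13579 genes were called (33.2%). Driver, time after tamoxifen, animals and table all differ between the 2 villus sets and cannot be told apart. Y-linked transcripts were present in 5 of 5 heterozygous and 2 of 5 homozygous Rosa26-CreER libraries, against 1 of 4 and 1 of 6 in Vil1-CreER villi, so the sexes were not balanced between the genotypes or between the sets, and their part in these differences was not tested. Regional markers differed as well, and their part was not tested either. In Rosa26-CreER villi Fabp6 was at 0 to 0.0699 CPM of the library total, while in heterozygous mice the proximal genes Cybrd1, an iron reductase, and Slc40a1, the iron exporter, were at 51.5 to 187 and 315 to 783 against 0 to 0.599 and 1.38 to 3.20 in Vil1-CreER villi. The difference of the effects was called in 603 of 15915 genes (3.79%), and in 214 (1.27%) without the 2 controls. Of the p53 targets, 11 of 24 had a more positive effect in Vil1-CreER villi and none a more negative one, against 1.61% and 2.18% of all genes, with 5 and none without the 2 controls (0.604% and 0.663% of all genes), and 6 of 23 rose in Rosa26-CreER villi (15% of all genes). Interferon-stimulated genes had a more negative effect in 10 of 36, or 2 without the 2 controls, with 12 of 36 risen in Rosa26-CreER villi.

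Eif4g2 itself fell by 2.70 in Rosa26-CreER villi and by 1.37 in Vil1-CreER villi (difference 1.28, adjusted p = 0.00011). Psrc1 differed by 4.47 (adjusted p = 0.0149) and Lama5 by 4.81 (adjusted p = 5.91e-05), both with a more positive effect in Vil1-CreER villi. Slc10a2 differed by 6.17 (adjusted p = 0.0272), with an effect of -2.57 in Rosa26-CreER villi. That effect rests on few reads. Slc10a2 was at 0.658 to 1.66 CPM of the library total in heterozygous and 0.0349 to 0.468 in homozygous Rosa26-CreER villi. Ephx1, an epoxide hydrolase, differed by 4.62 (adjusted p = 0.00128), with -3.14 in Rosa26-CreER villi against 1.52 in Vil1-CreER villi. Defa24 and Rps4l, a ribosomal protein paralog, had effects of -0.30 and 0.16 in Rosa26-CreER villi, neither called, and differences of -3.83 (adjusted p = 0.00727) and -3.66 (adjusted p = 2.99e-05).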

How the data were processed

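Libraries were made from poly(A) RNA with a dUTP second strand. The deposited values are raw, unnormalized read counts per gene in 1 table for the Vil1-CreER tissue and 1 for the Rosa26-CreER tissue, per the labels. The submitters' processing notes name HISAT2 2.0.5, a read aligner, and the build GRCm38/mm10. The counting program, annotation and use of strand are not given in the sources used here, so overlapping genes, paralogs and pseudogenes are uncertain. Of the 54532 gene identifiers, 54409 were in GENCODE vM21.

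The 10 villus libraries were fitted in edgeR 4.0.16 under R 4.3.3 (filterByExpr by group, TMM, robust quasi-likelihood F-test, Benjamini-Hochberg adjustment over all tested genes). Differences of effects were interactions in fits with 17 (crypts) and 20 (Rosa26-CreER villi) libraries. DESeq2 1.42.0 was an alternative. The scripts were tested on simulated data. Villus libraries are separate animals, and no 2 Vil1-CreER villus libraries of the same genotype agreed within counting noise. Pairs across genotypes were not compared in this way. In the villus and crypt fit 7 animals, by the numbers in the labels, gave both tissues. That fit has no block for the animal, and the block, in a fit of those 7 animals only, was an alternative.

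Named genes were Eif4g2, the 12 genes with the largest rise and the 12 with the largest fall (called, groups not overlapping, mean log2 CPM no lower than 3), each list's most abundant member, 2 largest rises and 2 largest falls, the 4 largest differences each way, and fixed markers, of which the text gives a selection; some are not reported here. Of 124 genes named for villi, 32 list members outside this rule were chosen after their values were seen, as was the fit without the 2 controls lacking Fabp6. Members and the 41 gene lists (796 genes) were chosen with earlier results of these data known.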

Additional observations from a re-analysis of the deposited data

Results flagged for a closer look

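Among 250 gene and group pairs looked at, 24 had 1 library whose gap to the nearest other was large for the range of its group, where chance flags about 1 in 20. Homozygous replicate 4 accounted for 5 of them. Its levels were 676 CPM for Scd2 (others 256 to 411) and 116 CPM for Fasn (33.9 to 64.3), both of the fatty acid synthesis list. It also had 63.9 CPM of Lyz1 (13.3 to 30.0), 12.6 CPM of Itln1 (7.43 to 8.69) and 0.334 CPM of Pou2f3 (0.0775 to 0.15). Homozygous replicate 1 had 262 CPM of Atg9b (others 13.6 to 51.0), 34.9 CPM of Cdkn2a (10.2 to 16.7), 64.2 CPM of Lama5 (18.1 to 30.0), 270 CPM of Ccng1 (129 to 172) and 151 CPM of Areg (45.3 to 84.6). Each of these 5 was the highest of the 6 homozygous libraries. Homozygous replicate 5 had 1197 CPM of Mme (565 to 747), 142 CPM of Egfr (47.7 to 74.4) and 2.33 CPM of Foxa3 (1.31 to 1.67), and homozygous replicate 2 had 672 CPM of Eif4a2 (532 to 573).

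Among controls, heterozygous replicate 4 was highest in Lct at 4118 CPM (others 2385 to 2630), Cd36 at 345 CPM (158 to 179), Lrat at 47.1 CPM (31.7 to 33.3) and Eif4a2 at 392 CPM (334 to 343). Heterozygous replicate 3 had 17.6 CPM of Dclk1 (34.5 to 37.2), 159 CPM of Chgb (271 to 287) and 3.19 CPM of Myc (2.08 to 2.20). Heterozygous replicate 1 had 400.0 CPM of Eif4g2 (314 to 325), and heterozygous replicate 2 had 2905 CPM of Muc13 (4016 to 4094) and 40.4 CPM of Crebbp (44.0 to 44.5). Replicates 3 and 4 are the controls without Fabp6 reads, and 7 of these 10 control values lay in them.

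Differences of the genotype effect between villi and crypts were called for Psrc1 (log2 4.02), Pnliprp2 (3.93), Bglap3 (3.92) and Ces2b (3.73) on the positive side and for Plek (-3.38), S100a6 (-3.36), Ppp1r16b (-3.26) and Rac2 (-3.23) on the negative side. Differences between Vil1-CreER and Rosa26-CreER villi were called for Slc10a2 (6.17), Lama5 (4.81), Ephx1 (4.62), Psrc1 (4.47) and Eif4g2 (1.28), and for Defa24 (-3.83) and Rps4l (-3.66).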

How the results depend on the processing

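In villi, the count of 6422 called genes lay between 5163 (without heterozygous replicate 4) and 6675 (without homozygous replicate 5) when each library was left out, and was 7343 of 21318 genes in DESeq2. It fell to 4134 without both controls lacking Fabp6. The difference from crypts was called in 2766 genes, in 1456 to 3425 with each library left out (lowest without homozygous crypt replicate 1, and by over 1.5 times lower also without homozygous crypt replicate 2, 1636, and heterozygous crypt replicate 1, 1804) and in 659 without both controls. The difference from Rosa26-CreER villi was called in 603 genes, in 252 to 902 with each library left out, in 1027 by DESeq2, in 345 with no low-count filter and in 214 without both controls. The libraries that lowered it by over 1.5 times were heterozygous Vil1-CreER replicates 1 (252) and 4 (335) and heterozygous Rosa26-CreER replicates 4 (368) and 5 (367). With size factors in place of TMM the 603 calls, 256 positive and 347 negative, became 532, with 290 and 242. Calls over the MHC class II list ranged from 2 to 9 of 9 with each library left out (3 without heterozygous replicate 1 or 3, 2 without heterozygous or homozygous replicate 4). Of 52 list counts of at least 3 in villi, 9 moved by over 1.5 times when 1 library was left out. The villus minus crypt calls of T cell genes became 5, 17 and 15 without homozygous crypt replicate 1, heterozygous crypt replicate 3 and homozygous villus replicate 1. Those of brush border genes became 5, 6 and 6 without homozygous crypt replicates 1 and 2 and heterozygous crypt replicate 1. Those of stem cell genes became 5 without each of these 3 or homozygous crypt replicate 3, and 7 without heterozygous villus replicate 1 or 4 or heterozygous crypt replicate 4. In the difference from Rosa26-CreER villi, interferon genes went from 10 to 4 to 6 without each of 7 libraries (lowest without heterozygous Vil1-CreER replicate 1), and p53 targets from 11 to 7 without heterozygous Vil1-CreER replicate 4. The mitochondrial difference ranged from -7.11 to -2.23 percentage points.

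No value of a named gene changed sign under any alternative. Calls that ended without the 2 controls stand in the report. Cdkn1a lost its call without each of 4 libraries (adjusted p = 0.0685 to 0.1), Mdm2 without 2 (0.0625 to 0.065), Lyz1 without 7 (0.0617 to 0.118) and H2-Aa without 5 (0.0605 to 0.0785), in edgeR's test. The difference from Rosa26-CreER villi lost its call without 2 libraries for Slc10a2 and without 1 for Psrc1. Without both animals with Y-linked transcripts the adjusted p of Slc10a2 was 0.0706, of Hnf4g 0.0532 and of H2-Aa 0.129. With no low-count filter it was 0.0569 for Cdkn1a, 0.0535 for Slc10a2, 0.101 for Lyz1 and 0.0777 for H2-Aa.

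Replicate numbers are shared between the genotypes but do not pair the animals: same-numbered libraries correlated at -0.103 to 0.115. A fit with the replicate number as a block held replicates 1 to 4 only, without homozygous replicates 5 and 6. In it 5739 genes were called, and Mdm2, Slc10a2, Lyz1, Dmbt1, Cldn2 and Lgr5 lost their call. There 3 solute carriers, 4 proliferation and 4 antimicrobial genes rose. The part of the block and that of the libraries left out cannot be told apart. With the animal as a block, in the 7 mice that gave both tissues, 2235 differences from crypts were called. What was limited by depth were genes near 0 in 1 group, such as Eda2r and Afp, whose fold changes rest on few reads.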

Other observations

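Families of housekeeping genes, taken by symbol after their values were seen, did not all move alike. Of 76 nuclear genes of oxidative phosphorylation, 38 fell and 1 rose, against 21.6% and 20.9% of all tested genes, with a median log2 change of -0.38. Atp5c1 and Atp5o, subunits of ATP synthase, went from 330 to 179 CPM and from 131 to 71.7 CPM in the group means, and Cox7a1, a cytochrome c oxidase subunit, from 36.8 to 13 CPM. Of 37 proteasome genes, 25 fell and none rose, with a median of -0.38. The immunoproteasome subunits Psmb8, Psmb9 and Psmb10 had the lowest log2 changes of that family, at -1.59, -1.22 and -0.83. Of 76 ribosomal protein genes, 6 rose and 1 fell.

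Of 19 genes of the villus tip, 5 rose (26.3%, against 20.9% of all tested genes) and 1 fell (5.26%, against 21.6%). Without the 2 controls lacking Fabp6 these were 4 and 1. Of 13 genes of the villus bottom, 3 rose (23.1%, near the share of all genes) and 6 fell (46.2%), and 1 and 6 without the 2 controls. Among 19 tested targets of NRF2, the factor of the oxidative stress response, 6 rose (31.6%) and 4 fell (21.1%, near the share of all genes). Without the 2 controls 4 of 20 rose and 2 fell. Of 11 tested myeloid genes 1 rose and 1 fell, at summed levels of 25.6 to 32.6 CPM in controls. In the libraries without Y-linked transcripts, Xist was at 351, 406 and 210 CPM in heterozygous and at 678 to 1229 CPM in homozygous villi, a pattern noticed after the values were seen. In the fit of all 10 villus libraries Xist had a log2 change of 1.6 and was not called.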
